A study of Saccharomyces cerevisiae with 10 samples.

Results

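Trehalose is a storage sugar and stress protectant of budding yeast, Saccharomyces cerevisiae. The 10 genes described here were chosen by name for their place in its metabolism, with earlier results of these data known. All of the 10 were among the 6677 features of both deposited tables. They are the 4 genes of the synthase complex (TPS1, TPS2, TPS3 and TSL1), the 3 trehalase genes (NTH1, NTH2 and ATH1) and 3 genes of the sugar phosphate supply (PGM1, PGM2 and UGP1). The signal is nuclear RNA crosslinked by UV light to an HTB-tagged protein, recovered by PAR-CLIP and sequenced. The protein mapped is Pol II (RNA polymerase II) by the study's design, but the labels name its subunit, Rpb2-HTB, only for the Nrd1 strain.

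The 6 libraries with values fell into 3 groups of 2. The first was a Nab3-FRB strain (NabFRB) with rapamycin, the next an Nrd1-FRB strain with Rpb2-HTB (Rpb2HTB_NrdFRB) and 45 min of rapamycin, and the last a strain labelled NabCassette without rapamycin. The time in rapamycin was not given for the Nab3 strain, and the sources used here do not say what the cassette is. FRB is a tag by which rapamycin ties a protein to an anchor that carries it out of the nucleus. Strain, depletion and rapamycin changed together, so their parts in any difference from the cassette cannot be told apart. All cells grew in a synthetic medium with limiting uracil, per the labels.

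In the cell, Tps1 joins UDP-glucose and a hexose phosphate into trehalose phosphate, and Tps2 removes the phosphate. Tps3 and Tsl1 are large regulatory subunits of the same complex. The neutral trehalases Nth1 and Nth2 and the acid trehalase Ath1 split trehalose back into glucose. Pgm1 and Pgm2 are the minor and major phosphoglucomutases, and Ugp1 makes UDP-glucose, which serves glycogen and cell wall synthesis as well. Many genes of this pathway are known to be induced in stress and as glucose runs out by the transcription factors Msn2 and Msn4, which bind the stress response element. Nrd1 and Nab3 are RNA-binding partners that, with the helicase Sen1, end transcription of short Pol II transcripts.

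After Nrd1 depletion, signal fell on 6 of the 10 genes and rose on 1. The falls took in all 4 synthase genes and PGM2 and UGP1, by 1.25-fold on TPS3 to 2.90-fold on TSL1, and the rise was on the trehalase gene NTH2 at 1.26-fold. After Nab3 depletion, 4 genes rose, by 1.155-fold on PGM1 to 1.35-fold on NTH1, and 0 fell. Signal was higher after Nab3 than after Nrd1 depletion on 8 of the 10, and lower on 0. The shares called among all features were 35.3% for Nrd1 depletion against the cassette (17.8% lower and 17.5% higher), 39.7% for Nab3 depletion against the cassette (21.1% higher and 18.7% lower) and 21% between the depletions (12.1% higher and 8.91% lower after Nab3 depletion). Against these shares, the 4 called after Nab3 depletion were near the 39.7% called in either direction. All 4 were rises, where 21.1% of all features rose. The 6 falls after Nrd1 depletion were above the 17.8% of all features that fell. A feature was called at an adjusted p under 0.05 by limma over all features tested. At an unadjusted p under 0.05 the falls after Nab3 depletion, and the genes lower after Nab3 than after Nrd1 depletion, were also 0, as they were by edgeR and DESeq2. A group left with 1 library, here and below, is assumed to vary like the rest, so calls made then do not measure its own spread. The count after Nab3 depletion rests on the libraries kept. Without Nab3 library 3 it was 3 rises and 3 falls (TPS2, TSL1 and PGM2), without cassette library 1 it was 2 rises and 1 fall (TPS2), and without Nab3 library 2 it was 6 rises and 0 falls.

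Because each trehalose gene gave 246 to 3095 recovered reads per library, counting alone gives a relative error of at most 6.38%, for TSL1 in 1 Nrd1 library. Libraries held 7395659 to 13428820 recovered reads. Values below are normalised reads, the reads of a gene divided by the authors' size factor for that library. The Nrd1 values were multiplied by 1.18, the mean ratio of the cassette columns of the tables, which had been normalised separately. That puts the 6 libraries on a joint scale, while each test against the cassette stayed within its own table. Fold changes are on log2(value + 1). The labels do not tell whether the 2 libraries of a group are from separate cultures, and the p-values speak only of the spread between libraries, which may be technical. In bulk libraries a small change in every cell and a larger one in some cells cannot be told apart.

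**Figure D1:**
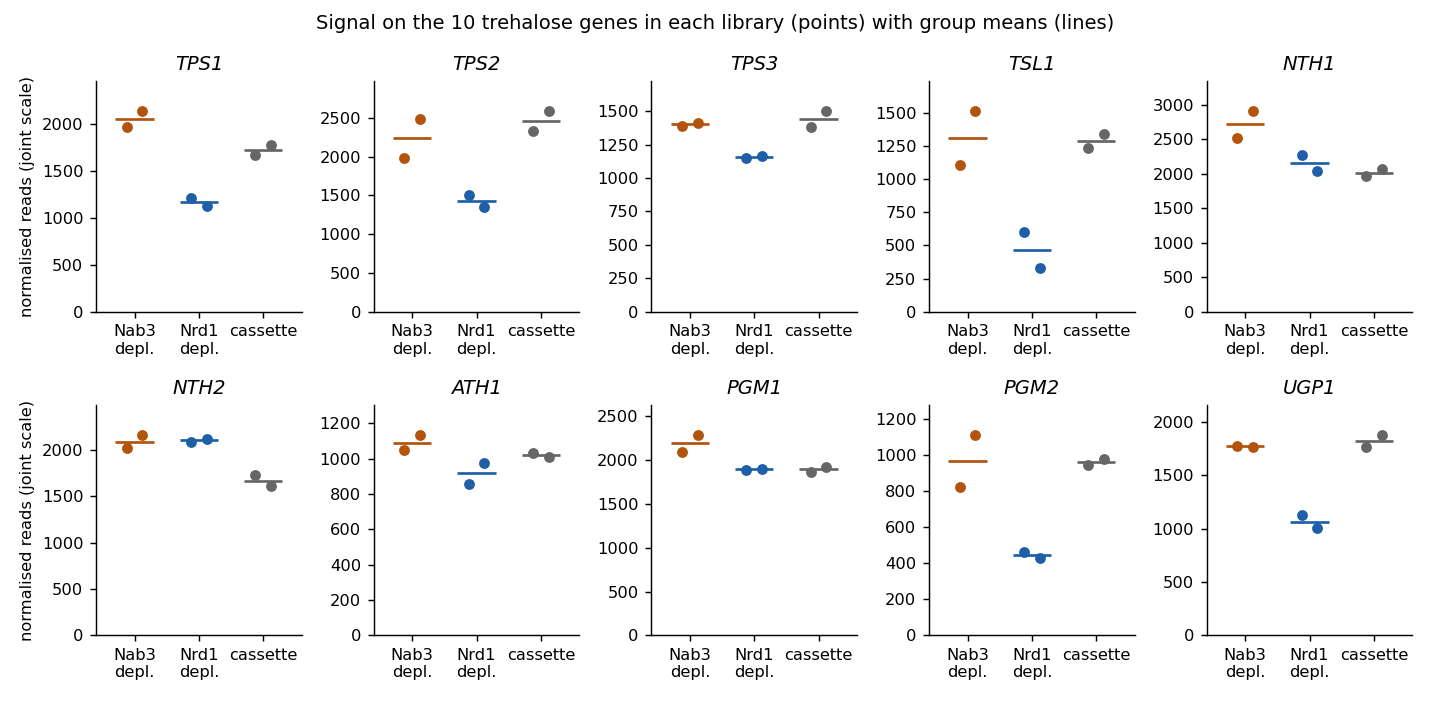
Normalised reads on the joint scale (vertical axis, from 0) for each of the 10 genes, with a point for each of the 2 libraries of each group and a line at the group mean. The Nrd1 points of TPS1, TPS2, TPS3, TSL1, PGM2 and UGP1 lie below both other groups, and the cassette points of NTH2 lie below both depletions.

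The short sequences that the transcription factors Msn2 and Msn4 are known to bind are shown first, because most of the 10 genes hold several. The 500 bases before each start codon were searched for AGGGG on both strands, so a match on the other strand reads CCCCT. Of the 10 genes, 9 had at least 1 match and 8 had at least 2. Among 6000 promoters of nuclear protein-coding genes, 34.1% had at least 1 match and 8.13% at least 2. TPS1 had 6 matches, TSL1 and PGM2 had 5 each, TPS2 and UGP1 had 4 each, PGM1 and NTH1 had 3 each, TPS3 had 2, ATH1 had 1 and NTH2 had 0. Only 0.45% of all promoters had 4 or more. Some windows run into other annotated genes. The first match of TPS1 lies in MEO1, 2 matches of TSL1 lie in YML100W-A, 2 of PGM1 lie in a tRNA gene and all 4 of UGP1 lie in AIM26. A match is a description of these letters and not a shown binding site.

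For genes with paired matches, the stretches below show the pair nearest the start codon with its flanks. For PGM2, which has its matches singly, they show the 2 nearest, and for ATH1 its 1 match. They are read 5′ to 3′ on the strand of the gene from the R64 reference sequence (RefSeq). Capitals mark the matches.
TSL1 (chrXIII:70432-70476, plus strand): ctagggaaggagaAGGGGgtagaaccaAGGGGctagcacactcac
PGM2 (chrXIII:477848-477878, minus strand): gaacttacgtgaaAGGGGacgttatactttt
PGM2 (chrXIII:477805-477835, minus strand): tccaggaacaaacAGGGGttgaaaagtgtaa
TPS1 (chrII:490614-490654, minus strand): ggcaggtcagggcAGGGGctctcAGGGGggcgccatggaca
TPS2 (chrIV:593439-593489, plus strand): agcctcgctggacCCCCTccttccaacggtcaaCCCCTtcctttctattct
UGP1 (chrXI:369606-369648, plus strand): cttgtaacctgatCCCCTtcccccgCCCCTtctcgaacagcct
TPS3 (chrXIII:793569-793617, minus strand): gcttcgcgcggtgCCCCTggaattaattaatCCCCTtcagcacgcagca
NTH1 (chrIV:452800-452838, minus strand): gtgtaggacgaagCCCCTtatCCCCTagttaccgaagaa
ATH1 (chrXVI:615062-615092, plus strand): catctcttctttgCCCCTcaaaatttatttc
These stretches include those of NTH1 and ATH1, on which no fall was called. That of UGP1 lies inside AIM26.

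**Figure D2:**
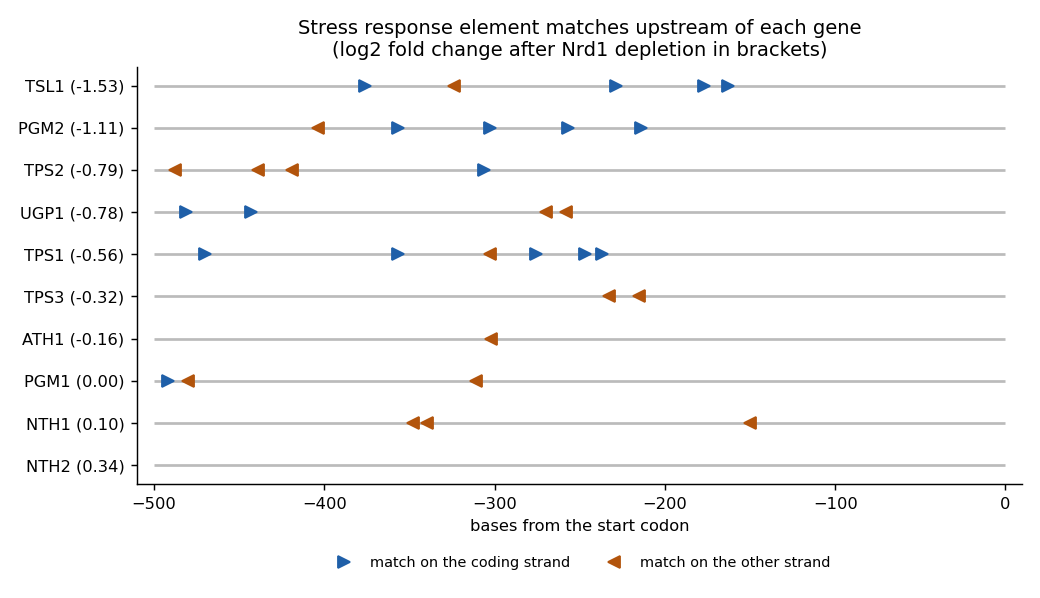
Positions of AGGGG matches in the 500 bases before the start codon (horizontal axis, bases from the start codon), a row per gene ordered by its log2 fold change after Nrd1 depletion, given in brackets. Right-pointing marks are matches on the coding strand and left-pointing marks those on the other strand. The 5 genes with 4 to 6 matches are the 5 topmost rows, and NTH2, at the bottom, has 0.

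TPS1, the synthase itself, lies on chromosome II (488905 to 490392, minus strand). It had 1967 and 2139 normalised reads in the Nab3-depleted libraries, 1216 and 1128 in the Nrd1-depleted libraries, and 1675 and 1773 in the cassette libraries. No group overlapped another, and the cassette lay between the depletions. TPS1 rose by 0.25 on the log2 scale after Nab3 depletion (± 0.06 SE, adjusted p = 0.00421) and fell by 0.56 after Nrd1 depletion (± 0.07 SE, adjusted p = 0.00172). Between the depletions it differed by 0.81 (± 0.07 SE, adjusted p = 0.000201), a call that held under all 16 alternatives tried. Leaving out cassette library 1 ended the call of the rise after Nab3 depletion (adjusted p = 0.0637, against a range down to 6.21e-06 over its alternatives) as did leaving out the mean-variance trend (adjusted p = 0.0571).

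TPS2, the phosphatase of the complex (chromosome IV, 593893 to 596583, plus strand), had 1989 and 2485 normalised reads after Nab3 depletion, 1507 and 1349 after Nrd1 depletion, and 2337 and 2589 in the cassette. Both Nrd1 libraries were lower than the other 4, and the Nab3 and cassette libraries overlapped. TPS2 fell 1.73-fold after Nrd1 depletion (log2 fold change -0.79 ± 0.08 SE, adjusted p = 0.000752). The log2 fold change after Nab3 depletion was -0.15 (95% interval -0.33 to 0.03, adjusted p = 0.186). That value rests on which library is used. It was -0.31 without Nab3 library 3, -0.22 without cassette library 1, and 0.01 without Nab3 library 2. The log2 fold changes of its other alternatives lay between the first and last of these.

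The regulatory subunits TPS3 and TSL1 are related genes, both on chromosome XIII, and they differed in size of change. TSL1 (70624 to 73920, plus strand) had 1105 and 1512 normalised reads after Nab3 depletion, 602.1 and 326.6 after Nrd1 depletion, and 1236 and 1341 in the cassette. The Nrd1 libraries were the lowest 2 of the 6 and lay far apart from each other, and the Nab3 libraries stood on either side of the cassette. TSL1 fell 2.90-fold after Nrd1 depletion (log2 fold change -1.53 ± 0.25 SE, adjusted p = 0.00459), lower than all but 0.41% of tested features. Taken alone, Nrd1 library 1 gave -1.095 and Nrd1 library 2 gave -1.975, and the call held under all 15 alternatives. After Nab3 depletion the value was 0.01 (95% interval -0.22 to 0.23, adjusted p = 0.971). It was 0.23 with Nab3 library 3 alone and -0.22 with Nab3 library 2 alone, so the libraries point in opposite directions. The highest adjusted p over its alternatives was 0.99.

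TPS3 (790205 to 793369, minus strand) had 1393 and 1410 normalised reads after Nab3 depletion, 1147 and 1163 after Nrd1 depletion, and 1380 and 1501 in the cassette. Its Nrd1 libraries were below the other 4. It fell 1.25-fold after Nrd1 depletion (log2 fold change -0.32 ± 0.07 SE, adjusted p = 0.0124), the smallest of the 6 falls. Without cassette library 1 the call was not made (adjusted p = 0.0675), nor without cassette library 2 (adjusted p = 0.164, the highest over its alternatives, the lowest being 8.95e-06). After Nab3 depletion the log2 fold change was -0.04 (95% interval -0.17 to 0.09, adjusted p = 0.658).

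No fall was called on the 3 trehalase genes in either comparison with the cassette. Over all features 17.8% fell after Nrd1 depletion and 18.7% after Nab3 depletion, so an absence of falls among so few genes says little. NTH1, the main neutral trehalase of growing cells (chromosome IV, 450220 to 452475, minus strand), had 2526 and 2909 normalised reads after Nab3 depletion, 2275 and 2039 after Nrd1 depletion, and 1963 and 2063 in the cassette. Its Nab3 libraries were the highest 2, and the Nrd1 and cassette libraries overlapped. NTH1 rose 1.35-fold after Nab3 depletion (log2 fold change 0.43 ± 0.07 SE, adjusted p = 0.000123), and the call held under all 14 alternatives. After Nrd1 depletion it was 0.10 (adjusted p = 0.313), and ranged from 0.02 to 0.18 over its alternatives, with 0.18 without Nrd1 library 2.

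NTH2, the related neutral trehalase (chromosome II, 238941 to 241283, minus strand), had 2021 and 2166 normalised reads after Nab3 depletion, 2088 and 2124 after Nrd1 depletion, and 1727 and 1612 in the cassette. All 4 depleted libraries lay above both cassette libraries, and the depletions overlapped. It rose by 0.33 (± 0.06 SE, adjusted p = 0.000592) after Nab3 depletion and by 0.34 (± 0.06 SE, adjusted p = 0.00671) after Nrd1 depletion, comparisons that share the cassette libraries. The rise after Nrd1 depletion was lost without cassette library 2 (adjusted p = 0.0928, against a lowest of 3.59e-07 over its alternatives). NTH2 was the 1 gene of the 10 called as a rise in both comparisons. Over all features 21.1% rose after Nab3 depletion and 17.5% after Nrd1 depletion, and the share that rose in both was not counted.

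ATH1, the acid trehalase, which acts outside the cytosol (chromosome XVI, 615379 to 619014, plus strand), had 1047 and 1135 normalised reads after Nab3 depletion, 857.8 and 975.7 after Nrd1 depletion, and 1032 and 1009 in the cassette. The groups did not overlap, but the gaps were small. The log2 fold change of ATH1 was 0.10 after Nab3 depletion (95% interval -0.05 to 0.24, adjusted p = 0.278) and -0.16 after Nrd1 depletion (± 0.08 SE, adjusted p = 0.185). The value after Nrd1 depletion ranged from -0.25, without Nrd1 library 2, to -0.06 over its 15 alternatives.

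The phosphoglucomutase genes differed from each other. PGM2, the major isoform (chromosome XIII, 475897 to 477606, minus strand), had 820.3 and 1111 normalised reads after Nab3 depletion, 461.8 and 426.1 after Nrd1 depletion, and 943.5 and 974.7 in the cassette. Both Nrd1 libraries were under all others by a wide gap. PGM2 fell 2.16-fold after Nrd1 depletion (log2 fold change -1.11 ± 0.09 SE, adjusted p = 0.000298) in all 15 alternatives. After Nab3 depletion it was -0.01 (95% interval -0.23 to 0.22, adjusted p = 0.967), with a highest adjusted p of 0.986 over its alternatives. It was 0.21 without Nab3 library 2 and -0.23 without Nab3 library 3.

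PGM1, the minor isoform (chromosome XI, 203541 to 205253, plus strand), had 2092 and 2290 normalised reads after Nab3 depletion, 1894 and 1897 after Nrd1 depletion, and 1863 and 1928 in the cassette. The Nrd1 libraries lay between the cassette libraries, and the Nab3 libraries were the highest. Its log2 fold change after Nrd1 depletion was 0.0001 (95% interval -0.13 to 0.13, adjusted p = 0.999). It rose by 0.21 after Nab3 depletion (± 0.06 SE, adjusted p = 0.0122), and leaving out cassette library 1 (adjusted p = 0.112, against a range down to 7.09e-05 over its alternatives), Nab3 library 3 (adjusted p = 0.0609) or the trend (adjusted p = 0.086) ended that call.

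UGP1, the UDP-glucose pyrophosphorylase (chromosome XI, 369891 to 371390, plus strand), had 1773 and 1767 normalised reads after Nab3 depletion, 1127 and 1002 after Nrd1 depletion, and 1764 and 1878 in the cassette. Both Nab3 libraries fell within the cassette range, and both Nrd1 libraries were lower than all others. UGP1 fell 1.71-fold after Nrd1 depletion (log2 fold change -0.78 ± 0.08 SE, adjusted p = 0.000712), in all 15 alternatives. After Nab3 depletion the log2 fold change was -0.04 (95% interval -0.16 to 0.08, adjusted p = 0.606).

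**Figure D3:**
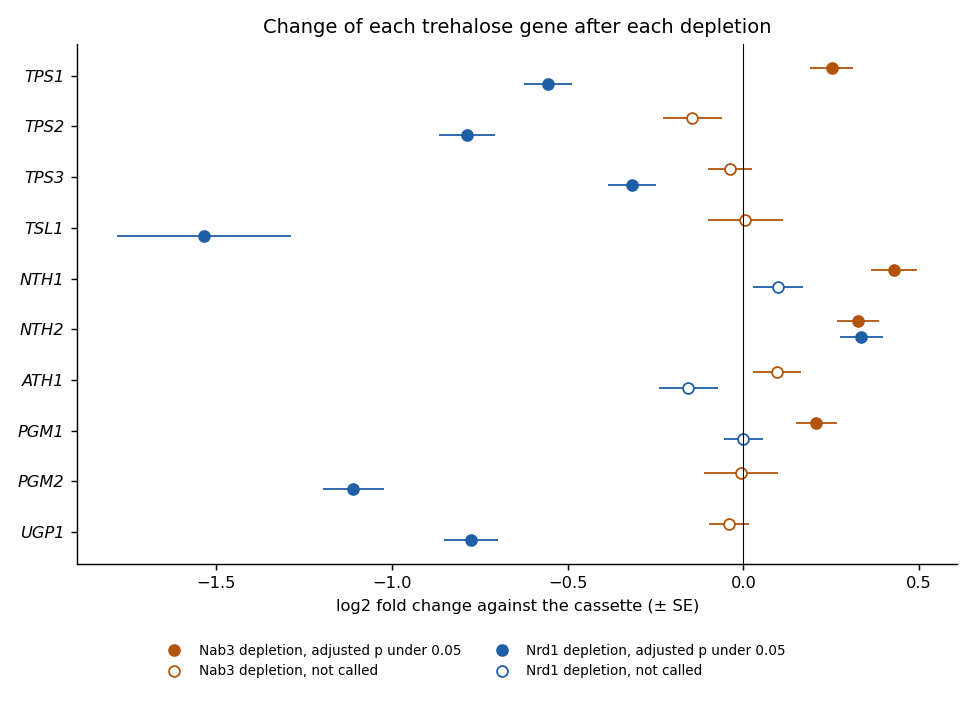
Log2 fold change against the cassette (horizontal axis, ± SE) of each gene after Nab3 depletion (upper point of each pair) and Nrd1 depletion (lower point). Filled points were called by limma at an adjusted p under 0.05. TSL1 at -1.53 and PGM2 at -1.11 after Nrd1 depletion lie farthest left, and NTH1 at 0.43 after Nab3 depletion farthest right.

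The authors' deposited tables gave the same calls for these genes, with 4 rises and 0 falls after Nab3 depletion and 1 rise and 6 falls after Nrd1 depletion at their adjusted p under 0.05. For TSL1 after Nrd1 depletion, the authors' deposited table gives a log2 fold change of -1.47 and an adjusted p of 1.23e-07. For PGM1 after Nab3 depletion, the authors' deposited table gives 0.21 and an adjusted p of 0.0355.

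The depletions were compared with each other directly, with the difference taken as Nab3 minus Nrd1. All 4 synthase genes and all 3 supply genes were higher after Nab3 depletion, and of the trehalase genes NTH1 was. The log2 difference was 1.54 for TSL1 (± 0.25 SE, adjusted p = 0.00379), 1.104 for PGM2 (± 0.13 SE, adjusted p = 0.00104), 0.74 for UGP1 (± 0.07 SE, adjusted p = 0.000435) and 0.64 for TPS2 (± 0.11 SE, adjusted p = 0.00447). Smaller differences were 0.33 for NTH1 (adjusted p = 0.0223), 0.28 for TPS3 (adjusted p = 0.0179) and 0.21 for PGM1 (adjusted p = 0.0455). Those for PGM2, TPS1, TPS2 and UGP1 were called in all 16 alternatives. TSL1 lost its call without Nab3 library 3 (adjusted p = 0.0523, the highest over its alternatives, the lowest being 1.08e-07), and PGM1 lost it in 10 of 16 (adjusted p-values 0.0388 to 0.233 over all 16). NTH1 lost it without Nab3 library 3 (adjusted p = 0.151) and without the trend (adjusted p = 0.0852, with a lowest of 0.00185). TPS3 lost it without Nab3 library 2 (adjusted p = 0.077), without Nab3 library 3 (adjusted p = 0.097) and without the trend (adjusted p = 0.0513, with a lowest of 0.0103). NTH2 at -0.01 (95% interval -0.15 to 0.13, adjusted p = 0.937) and ATH1 at 0.25 (95% interval 0.07 to 0.44, adjusted p = 0.0595) were not called. The tags and the time in rapamycin may differ between these groups too, so a difference belongs to the whole combination. Over all features, 772 were higher and 569 lower after Nab3 depletion, a balance that turned under upper-quartile scaling (634 and 817), total scaling (626 and 722) and a joint scale from medians (593 and 896).

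Ratios within a library do not depend on its size factor, and they show the unequal change within gene pairs. Per kilobase, TSL1 over TPS3 was 0.761 and 1.03 after Nab3 depletion, 0.504 and 0.27 after Nrd1 depletion, and 0.86 and 0.857 in the cassette. PGM2 over PGM1 was 0.393 and 0.486 after Nab3 depletion, 0.244 and 0.225 after Nrd1 depletion, and 0.507 and 0.506 in the cassette. NTH1 over NTH2 was 1.3 and 1.39 after Nab3 depletion, 1.13 and 0.997 after Nrd1 depletion, and 1.18 and 1.33 in the cassette. In both Nrd1 libraries each of these 3 ratios was below both cassette libraries. TPS2 over TPS1 was 0.559 and 0.642 after Nab3 depletion, 0.685 and 0.661 after Nrd1 depletion, and 0.772 and 0.807 in the cassette, so it was lowest after Nab3 depletion. The summed synthase genes over the summed trehalase genes stood at 1.25 and 1.29 after Nab3 depletion, 0.9 and 0.83 after Nrd1 depletion, and 1.48 and 1.61 in the cassette. Every depleted library was below the cassette in that ratio. These ratios are descriptions, with no test.

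**Figure D4:**
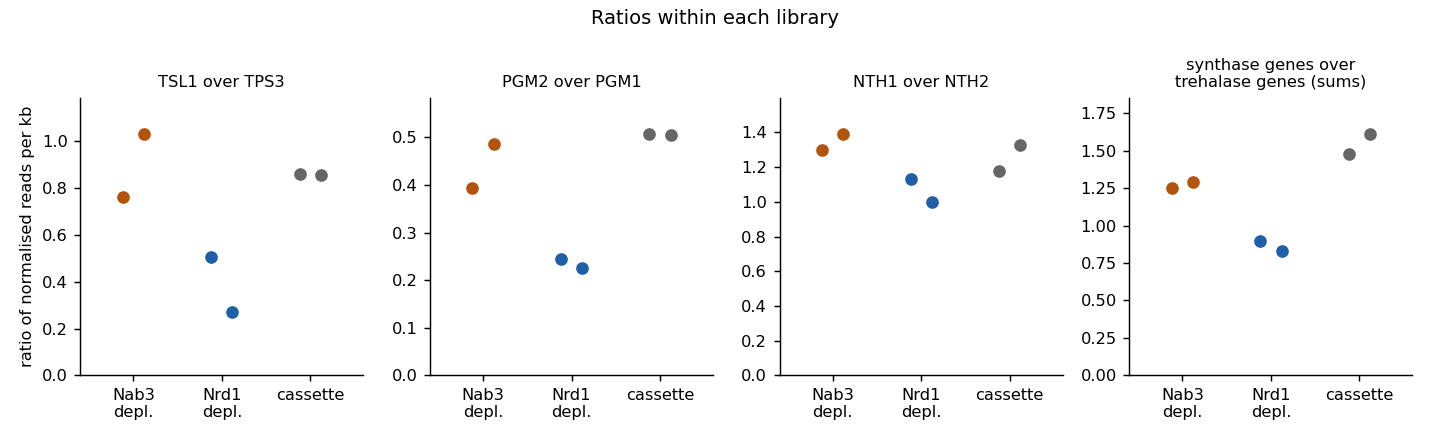
Ratios of normalised reads per kilobase (vertical axes, from 0) within each library, with a point per library for Nab3 depletion, Nrd1 depletion and cassette. TSL1 over TPS3 and PGM2 over PGM1 are lowest in the Nrd1 libraries, and the summed synthase over trehalase ratio is highest in the cassette, at 1.48 and 1.61.

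Reads shared between related genes could blur such ratios, and how multiply mapped reads were handled is not stated in the sources used here. The coding sequences of TPS3 and TSL1 aligned with 67.9% identity, those of NTH1 and NTH2 with 73.4% and those of PGM1 and PGM2 with 74.3%. No stretch of 25 bases was shared exactly by TPS3 and TSL1 or by PGM1 and PGM2, and 9 of the 2232 such stretches in NTH1 recur in NTH2. The longest identical runs are given here because a read confined to them could not be placed.
NTH1 and NTH2 (chrIV:451472-451504, minus strand, in NTH1): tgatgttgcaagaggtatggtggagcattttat
PGM1 and PGM2 (chrXI:204258-204280, plus strand, in PGM1): gttgatgaatttggtttaccggc
TPS3 and TSL1 (chrXIII:791417-791431, minus strand, in TPS3): tttttgcatcaagat
These runs have 33, 23 and 15 bases, and the shortest of the 6 coding sequences, PGM2, has 1710.

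Levels were compared between genes per kilobase of the deposited gene length. In the cassette, UGP1 at 1214 ± 53.8 normalised reads per kb (SD, n = 2) and TPS1 at 1159 ± 46.7 stood highest and overlapped. PGM1 followed at 1107 ± 26.7, then TPS2 at 915 ± 66.1 and NTH1 at 892 ± 31.4, which overlapped, and NTH2 at 713 ± 34.8. PGM2 at 561 ± 12.9, TPS3 at 455 ± 26.9, TSL1 at 391 ± 22.4 and ATH1 at 281 ± 4.55 stood lowest, without overlap between neighbours. The median over all 6677 features was 905 per kb, so the 10 genes spanned the 18.6th to the 62nd percentile, with none among the strongest. After Nrd1 depletion the order was different. PGM1 at 1107 ± 1.22 and the neutral trehalase genes NTH1 at 956 ± 74.1 and NTH2 at 899 ± 10.7 led, and TSL1 was last at 141 ± 59.1. After Nab3 depletion TPS1 led at 1380 ± 81.6, with PGM1 at 1279 ± 81.7 overlapping it, and ATH1 was last at 300.1 ± 17.1.

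Among genes of other steps, those that share the sugar phosphate pool or act on glycogen were listed together with MAL11. They fell after Nrd1 depletion in 5 of 13 cases and rose in 0, where 17.8% of all features fell and 17.5% rose. This list and those below were chosen with earlier results of these data known, so their counts are no independent check. HXK1, a hexokinase, fell most at -2.07 (adjusted p = 0.000577), then GLK1, glucokinase, at -1.30 (adjusted p = 0.000848) and GPH1, glycogen phosphorylase, at -1.07 (adjusted p = 0.00905). The list median was -0.41, against -0.44 for the 10 trehalose genes and -0.004 over all features. After Nab3 depletion 3 of the 13 rose and 2 fell, near the 21.1% and 18.7% of all features. The median was 0.07, against 0.05 for the trehalose genes and -0.01 over all features. HXK1 fell at -0.43 (adjusted p = 0.0142), GSY2, a glycogen synthase, rose at 0.37 (adjusted p = 0.00154) and GLG2, a glycogenin, fell at -0.33 (adjusted p = 0.0146).

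The 21 regulators listed, which are the protein kinase A arm, kinases and transcription factors of the stress response, and partners of neutral trehalase, fell in 7 cases and rose in 2 after Nrd1 depletion (median -0.10), where 17.8% of all features fell and 17.5% rose. Among them, DCS2 fell at -1.03 (adjusted p = 0.00123) and BMH1, a 14-3-3 protein, at -0.56 (adjusted p = 0.00394). After Nab3 depletion 6 rose and 4 fell (median 0.06), near the 21.1% and 18.7% of all features. The stress transcription factor gene MSN4 rose at 0.58 (adjusted p = 4.28e-06), PDE1, a cAMP phosphodiesterase, at 0.41 (adjusted p = 0.000578) and the kinase gene YAK1 at 0.38 (adjusted p = 0.000747). After Nrd1 depletion MSN4 rose too, at 0.37 (adjusted p = 0.0134). There YAK1 fell at -0.43 (adjusted p = 0.00743), and PDE1 was not called (-0.18, adjusted p = 0.236).

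The 15 stress genes with known Msn2 or Msn4 control, a list without trehalose genes, fell in 14 cases after Nrd1 depletion and rose in 0. Their median was -1.34, and over all features 17.8% fell and 17.5% rose. Because the list was chosen with earlier results known, it is no independent check on the trehalose genes. TMA10 at -2.67 (adjusted p = 0.000308) and the small heat shock genes HSP42 at -2.19 (adjusted p = 0.00021) and HSP26 at -2.01 (adjusted p = 0.000358) fell most. After Nab3 depletion 10 of the 15 fell and 0 rose (median -0.46), where 18.7% of all features fell and 21.1% rose. The falls were led by the Hsp70 gene SSA4 at -1.51 (adjusted p = 2.33e-10), HSP42 at -0.96 (adjusted p = 3.84e-05) and HSP26 at -0.95 (adjusted p = 7.56e-07). The other 5 were not called, and the highest value in the list was 0.105. The summed signal of the 15 was 14014.9 and 16275.3 normalised reads after Nab3 depletion, 8518.5 and 8467.9 after Nrd1 depletion, and 20515.7 and 20170.2 in the cassette. Nab3 library 3 stood above Nab3 library 2 in this sum. It did so on every trehalose gene but UGP1 as well, NTH1 (2526 and 2909) among them. The part of that library in the Nab3 values of TSL1, PGM2 and TPS2 is given by the values without it, above.

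The number of stress response element matches was set against the fold change of every tested feature with a promoter. After Nrd1 depletion the median log2 fold change was -0.002 for 3786 features with 0 matches, -0.06 for 1513 with 1, -0.11 for 366 with 2, -0.29 for 83 with 3 and -0.48 for 27 with 4 or more. The share that fell was 16.4% with 0 matches, 21.6% with 1, 28.4% with 2, 47.0% with 3 and 48.1% with 4 or more. The 13 features that fell with 4 or more matches include all 5 trehalose genes of that bin, so this last share leans on them. Without the 5 trehalose genes among the 27, the median of the remaining 22 was -0.37. Nrd1 library 1 alone gave -0.30 for the 27 and Nrd1 library 2 alone -0.64. After Nab3 depletion the medians were -0.02, -0.01, 0.01, -0.03 and 0.01 for 0, 1, 2, 3 and 4 or more matches. The share that fell after Nab3 depletion was 19.8% with 0 matches, 18.5% with 1, 19.3% with 2, 30.1% with 3 and 22.2% with 4 or more. The bins were set after the fold changes were known, and no test was made of them.

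**Figure D5:**
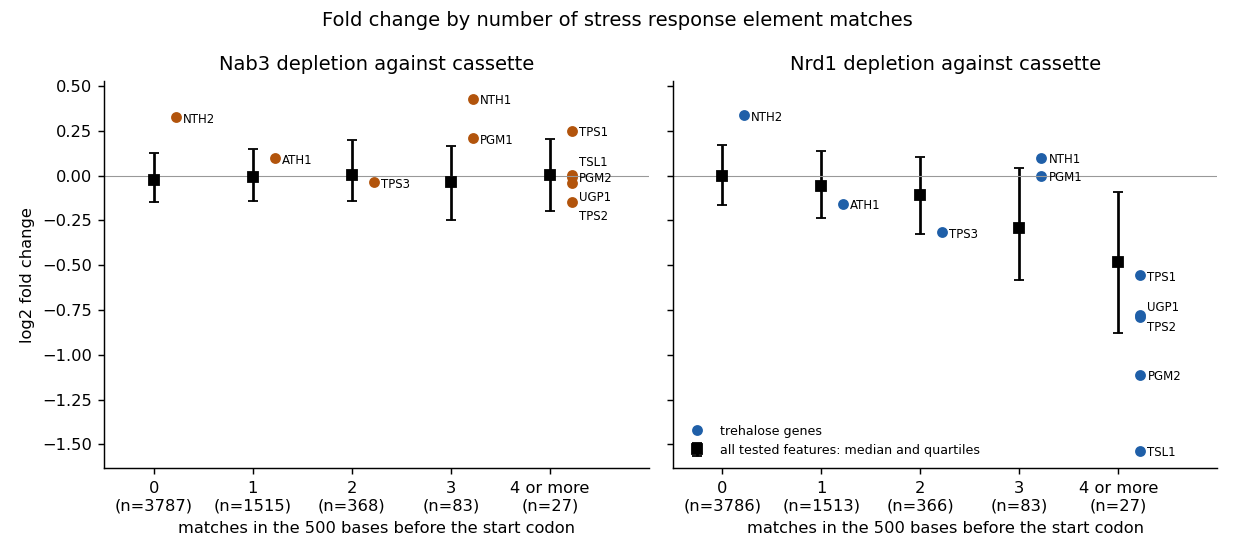
Log2 fold change against the cassette (vertical axis) by number of AGGGG matches in the 500 bases before the start codon (horizontal axis, n features below), for Nab3 depletion on the left and Nrd1 depletion on the right. Squares with bars are the median and quartiles of all tested features, and named points are the 10 trehalose genes. The medians include the trehalose genes. They step down to -0.48 in the Nrd1 panel (-0.37 without the trehalose genes of that bin) and lie between -0.03 and 0.01 in the Nab3 panel.

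Motifs known for the RNA-binding proteins were counted in coding sequence on the sense strand, as DNA letters. The Nrd1 motifs GTAA and GTAG together occurred 2.92 times per kb in PGM2, 3.03 in ATH1, 3.64 in TSL1, 4.0 in UGP1 and 4.03 in TPS1, against a median of 5.17 over 5683 genes. NTH2 at 7.68 per kb, NTH1 at 6.21 and PGM1 at 5.25 were above that median, and TPS2 at 4.83 and TPS3 at 5.06 were just below it. The Nab3 motif TCTT occurred 2.99 times per kb in NTH2 and 4.03 in TPS1, below the median of 4.48, and 5.2 to 7.33 times per kb in the other 8. These densities describe letters only.

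The nearest annotated gene on each side was examined, and those called are named. No annotated gene overlaps any of the 10. Upstream of UGP1, AIM26 lies on the same strand 169 bases away and rose by 0.50 after Nab3 depletion (adjusted p = 0.0303) and 0.93 after Nrd1 depletion (adjusted p = 0.0096), where UGP1 fell. Downstream of PGM2, YPK2, a protein kinase gene, rose by 0.86 after Nab3 depletion (adjusted p = 1.05e-07). Upstream of PGM2 on the other strand, YMR105W-A rose by 0.54 after Nab3 depletion (adjusted p = 0.0262). PTC4, a phosphatase gene downstream of TPS1, rose by 0.23 after Nab3 depletion (adjusted p = 0.00722) and by 0.34 after Nrd1 depletion (adjusted p = 0.00687), while PPH3, downstream of TPS2, rose by 0.23 after Nab3 depletion (adjusted p = 0.00902). After Nrd1 depletion YMR262W, upstream of TPS3, fell at -0.38 (adjusted p = 0.0144), YRB1, upstream of NTH1, fell at -0.31 (adjusted p = 0.00697), and ECM15, downstream of NTH2, fell at -0.48 (adjusted p = 0.00198). RMD1, downstream of NTH1, fell at -0.19 after Nab3 depletion (adjusted p = 0.028). Whether strand was used in counting is not stated in the sources used here.

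The mean profile of the 4 synthase genes over the 6 libraries, as log2 values centred on each gene's own mean, was compared with other tested features by Euclidean distance. Outside the 10 genes the nearest 5 were GLC3, the glycogen branching enzyme (distance 0.15), YMR315W (0.211), CHO2, a phospholipid methyltransferase (0.218), GPD1, a glycerol phosphate dehydrogenase (0.223), and YPT53, a Rab GTPase (0.234). Of the 10 genes, UGP1 at 0.202 was nearer than all of these but GLC3. The 4 genes averaged lay at 0.226 (TPS2), 0.311 (TPS1), 0.646 (TPS3) and 0.957 (TSL1), so the mean stands for TPS3 and TSL1 poorly. PGM2 lay at 0.398, ATH1 at 0.786, PGM1 at 0.863, NTH1 at 0.903 and NTH2 at 1.21. GLC3 had log2 fold changes of -0.04 after Nab3 depletion (adjusted p = 0.748) and -0.90 after Nrd1 depletion (adjusted p = 0.00317). GPD1 stood at 0.18 (adjusted p = 0.0264) and -0.80 (adjusted p = 0.00316).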

How the data were processed

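PAR-CLIP libraries of yeast were used for 6 of the 10 samples in the series, and the other 4 were not analysed here. The deposited signal of a library is its gene reads over a size factor that the authors set for each of 2 tables separately, as the values show: 100% of values were whole multiples of 1 read within 0.01 reads. Per the submitters' processing notes, the tools were Bowtie 1.1.1 and DESeq and the builds R64 and sacCer3. The authors' comparison tables hold a log2 fold change and an adjusted p-value per feature, per the file headers.

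Nab3 columns are numbered 2 and 3 and their titles 1 and 2, so they were assigned to the group only. Features with a mean of at least 10 were tested on log2(value + 1) with limma 3.58.1 (R 4.3.3, eBayes with trend, Benjamini-Hochberg adjustment), 6360 features for Nab3 and 6347 for Nrd1 depletion against the cassette, and 6385 in the joint fit of 6 libraries for the difference of depletions. All 10 trehalose genes passed that filter. Recovered reads were tested with edgeR 4.0.16 and DESeq2 1.42.0 as alternatives. For 5906 of 5912 features matched to the annotation, the deposited length is the R64 length minus 1, so R64 coordinates and sequences were used.

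The genes and lists were chosen with earlier results of these data known. Named genes are the 10, the 3 called genes of each list with the largest changes against the cassette, called neighbours and the nearest 5 profiles. A gene that this rule names, and a sequence, are not reported here.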

Additional observations from a re-analysis of the deposited data

Results flagged for a closer look

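Between the depletions, 8 of the 10 genes differed by limma over all features tested, all 8 higher after Nab3 depletion. Only TPS1, TPS2, PGM2 and UGP1 were called in all 16 alternatives. Over all features 21% were called, with 12.1% higher after Nab3 depletion. The log2 differences, Nab3 minus Nrd1, were 0.81 for TPS1, 0.64 for TPS2, 0.28 for TPS3, 1.54 for TSL1, 0.33 for NTH1, 0.21 for PGM1, 1.104 for PGM2 and 0.74 for UGP1. Against the cassette, 6 of these genes fell after Nrd1 depletion, where 17.8% of all features fell. Of those 6 only TPS1 was called after Nab3 depletion, where it rose.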

How the results depend on the processing

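Leaving out the mean-variance trend brought the trehalose genes called after Nab3 depletion to 2, and between the depletions to 5, with 775 features called. Fitting the 6 libraries together gave 1679 features for Nab3 depletion, against 2528 in the fit of its own table. Leaving out 1 library at a time gave 3 to 6 trehalose genes and 1672 (without cassette library 1) to 2803 features for Nab3 depletion. The trehalose genes split into 3 rises and 3 falls without Nab3 library 3, 2 rises and 1 fall without cassette library 1, 6 rises and 0 falls without Nab3 library 2, and 4 rises and 0 falls without cassette library 2. For Nrd1 depletion it gave 5 to 9 trehalose genes and 640 to 3617 features, against 2238, with 640 without cassette library 1, 719 without cassette library 2 and 3617 without Nrd1 library 2. Between the depletions it gave 4 (without Nab3 library 3) to 9 trehalose genes and 411 to 2079 features, against 1341. These were 411 without Nab3 library 3, 479 without Nab3 library 2, 793 and 798 without cassette library 1 and 2, and 2079 without Nrd1 library 2. A group with 1 library left is assumed to vary like the other.

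Directions turned only for values that were not called in the main test. After Nab3 depletion the log2 fold change of TSL1 was -0.0247 under upper-quartile scaling and -0.0254 under total scaling, and -0.2199 to 0.2315 with 1 library left out. That of PGM2 was 0.00643 with DESeq2 and -0.2251 to 0.2119 with 1 library left out. With 1 library left out, TPS2 gave -0.3062 to 0.01463, TPS3 -0.09849 to 0.02227 and UGP1 -0.08547 to 0.004853. After Nrd1 depletion PGM1 was -0.00118 under total scaling and -0.02473 to 0.02499 with 1 library left out, and between the depletions NTH2 was -0.05944 to 0.04023. The cause of these shifts was not tested.

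With the replicate number as a block, Nrd1 depletion gave 7 trehalose genes and 2243 features. The numbers mark no known pairing (correlation of same-numbered deviations 0.0133 across 6347 features). No paired analysis was possible for Nab3 depletion because its columns carry other numbers than its samples. Each group had 2 libraries. TSL1 had the fewest reads of the trehalose genes, 246 in 1 Nrd1 library, a counting error of 6.38%. Its Nrd1 libraries lay much farther apart than that, at 602.1 and 326.6 normalised reads.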
